A study of Mus musculus with 8 samples.

Results

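The transcripts described here came from the clustered histone genes of the mouse, which hold the histones H1, H2A, H2B, H3 and H4 in 4 gene clusters. Members were chosen by symbol and by UMIs (unique molecular identifiers, each standing for 1 captured transcript): every symbol beginning with Hist1h, Hist2h, Hist3h or Hist4h that had at least 1 UMI in any of the 8 libraries. Of 32285 genes listed, 24835 had a UMI, 67 symbols matched and 65 were members. Hist1h2bq entered with 1 UMI over all libraries and Hist2h2aa2 with 7, whereas Hist1h2ba and Hist1h2aa matched the pattern with no UMI and stayed outside. The members comprised 6 H1, 17 H2A, 17 H2B, 12 H3 and 13 H4 genes, of which 52 belonged to the Hist1 cluster on chromosome 13, 10 to Hist2 on chromosome 3, 2 to Hist3 on chromosome 11 and 1 to Hist4 on chromosome 6.

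These genes supply the core histones and linker histones that package newly copied DNA, and most are transcribed mainly in S phase. Their usual transcripts carry no poly(A) tail: they end just after a short stem-loop, which the stem-loop binding protein Slbp holds. Some members also make longer transcripts with a poly(A) tail, among others in cells that do not divide. The libraries were primed with oligo-dT, which takes up transcripts through a poly(A) tail or an internal run of A, so levels of different members are levels of captured transcripts.

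The study sequenced single cells of mouse tongue epithelium in 4 groups of 2 libraries each, 15 days after induction. N mice carried Krt14-CreERT and LSL-rtTA, E mice tetON_E6-E7 in addition, Y mice tetON_YAP1S127A in addition, and EY mice both transgenes; E6-E7 are oncoproteins of a papillomavirus and YAP1S127A is an activated form of the Hippo effector YAP1. All groups, N included, received tamoxifen in the tongue and doxycycline chow. The Krt14 promoter drives CreERT in basal epithelial cells, so transgene expression began in those cells. Per the methods all mice, N included, were littermates of 8 to 16 weeks and carried a tetON_H2B-GFP reporter, which encodes a histone H2B fusion; reads from that reporter were not measured here, and its part in the values of H2B genes was not tested. Cells were sorted as viable only. The title of library N2 names a pair of animal numbers, so N2 may pool animals, and nothing in the labels ties libraries of different groups to each other.

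To show where the annotated transcripts end and where runs of A lie, stem-loops of 16 bases were read from annotated transcripts (GENCODE M21, GRCm38), in a search of the sense strand that left the fourth base pair of the stem free. Of the 65 members, 33 held a match, 26 of them as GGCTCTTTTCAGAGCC and 7 as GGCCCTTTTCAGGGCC, and no other form occurred. Where several transcripts of a member held a stem-loop, the 1 with the most bases after it was used. That transcript ended within 100 bases of the stem-loop in 17 members and ran 100 bases or more past it in 16. The other 32 had no match in any annotated transcript, Hist1h2bc, Hist1h1b and Hist1h3c among them. Some of these are annotated as short transcripts, of 393 bases for Hist1h2ak and 312 for Hist1h4k. A missing match therefore does not show that the gene lacks a stem-loop. The sequences below are those of the members that carry the results, each with up to 7 bases on either side and the stem-loop in capitals, in the direction of transcription.
Hist1h2ap: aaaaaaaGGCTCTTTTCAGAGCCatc
Hist1h2ae: aaacaaaGGCTCTTTTCAGAGCCattcact
Hist1h2ab: aaacaaaGGCTCTTTTCAGAGCCacccaca
Hist1h3b: acccaaaGGCTCTTTTCAGAGCCacccaca
Hist1h1e: acccaaaGGCTCTTTTCAGAGCCacccaca
Hist1h1c: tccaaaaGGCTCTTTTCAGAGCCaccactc
Hist1h4d: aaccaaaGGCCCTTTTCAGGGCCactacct
Hist3h2a: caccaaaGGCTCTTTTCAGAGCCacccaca

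In GRCm38 these lie at chr13:21833026-21833051 on the minus strand for Hist1h2ap, chr13:23570661-23570690 (minus) for Hist1h2ae, chr13:23751565-23751594 (plus) for Hist1h2ab and chr13:23752813-23752842 (plus) for Hist1h3b. The others lie at chr13:23621775-23621804 (minus) for Hist1h1e, chr13:23739505-23739534 (plus) for Hist1h1c, chr13:23581943-23581972 (plus) for Hist1h4d and chr11:58955165-58955194 (plus) for Hist3h2a, all in annotated exons. The annotated transcript of Hist1h2ap stopped 3 bases after its stem-loop, that of Hist1h2ab 11 bases and that of Hist1h3b 51 bases after it. The transcript of Hist1h2ae ran on for 151 bases, that of Hist1h4d for 770, that of Hist1h1c for 840, that of Hist1h1e for 1153 and that of Hist3h2a for 1643. Hist1h2ap was the member with the most captured transcripts in these libraries, and 16 of the 20 bases before its stem-loop were A, with a longest run of 12 A. Hist1h2ao, which shares sequence with Hist1h2ap and had 117 UMIs over all libraries against 602001, held the same 16 of 20 and the same run of 12. Over all 33 members with a match the median was 8 of 20, with a range of 4 to 16.

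Members also share sequence with each other, which limits how a read is given to a gene. Cut into words of 90 bases, 7.63% of the words of Hist1h2ap occurred in no annotated transcript of another gene, member or not. None of the words in its last 300 bases was its own in this sense. For Hist1h1e every word of the last 300 bases also occurred in the overlapping gene Hist1h2be. Over all members, 22 had only words of their own in the last 300 bases and 9 had none. Values of Hist1h2ap and Hist1h1e are therefore values of those sequences as the authors' counting assigned them.

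Promoters of 52 members were found in RefSeq (GRCm38.p6, 300 bases around the start, both strands searched). CCAAT occurred in 84.6% of them against 37.4% of all 32851 promoters, in all promoters of H1, H2A, H2B and H3 genes but in 27.3% of those of H4 genes. TATAAA occurred in 57.7% against 13.6%, and the octamer ATTTGCAT in 17.3% against 1.74%, with 38.5% of H2A and 30.8% of H2B promoters holding it and none of the H1, H3 or H4 promoters. The letters are a description of these windows and not of factor binding.

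The deposited libraries held 42550 cells with 46483469 to 102427359 UMIs each, and 25199 cells remained within the study's limits (1000 to 5500 genes, no more than 30000 UMIs, no more than 7% of UMIs mitochondrial). Epithelial cells were those in which Krt5, Krt14, Krt15, Krt13 and Krt6a together made up at least 0.5% of UMIs and Ptprc had none. They numbered 3447 and 415 in the N libraries (N1 and N2, an order kept for all groups throughout), 4055 and 553 in E, 1289 and 1001 in Y, and 170 and 2027 in EY, 12957 in all. No one of 10 epithelial markers was at 0 in any library, and their summed level ranged from 21889 to 26197 CPM (UMIs per 1000000 UMIs). Immune markers other than Ptprc were at 82.8 to 267 CPM in the N, E and Y libraries, at 2272 CPM in EY1 and at 686 CPM in EY2. Pairs of libraries shared 2 to 19 cell barcodes, at most 0.393%. The upper limits took away unequal shares of the epithelial cells, from 2.10% in N1 and 3.11% in E1 to 44.0% in N2 and 64.7% in EY1, and of the cells removed 59.6% to 99.5% had a UMI of Mki67 or Top2a. EY1 thus stood apart by its few cells, its immune marker level and its removed share. Calls of EY against N are given with and without it for the counts of members and for the members named with their changes where that fit was written out; sums, shares and counts over other gene lists are given by library or with EY1 included.

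In epithelial cells the members summed to 581692 UMIs, and 59 to 64 members had a UMI in each library. Their summed level was 1589 CPM in N1 and 1220 in N2, 2644 in E1 and 1117 in E2, 1937 in Y1 and 3859 in Y2, and 1276 in EY1 and 5588 in EY2. The EY mean was 2.44 times the N mean, yet the groups overlapped: EY1 lay between both N libraries, and the EY minus N difference of 2027 CPM became -128.63 CPM without EY2 and 4183 CPM without EY1. With those upper limits lifted the levels were 1584 and 3697 CPM in N, 2733 and 2945 in E, 2957 and 4484 in Y, and 4936 and 5323 in EY. In that setting the EY libraries were the highest pair, and EY1 no longer lay among the N libraries. In a sum over all cells, more cells with these transcripts and more transcripts per cell cannot be told apart. Cells were therefore next split by proliferation transcripts.

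**Figure D1:**
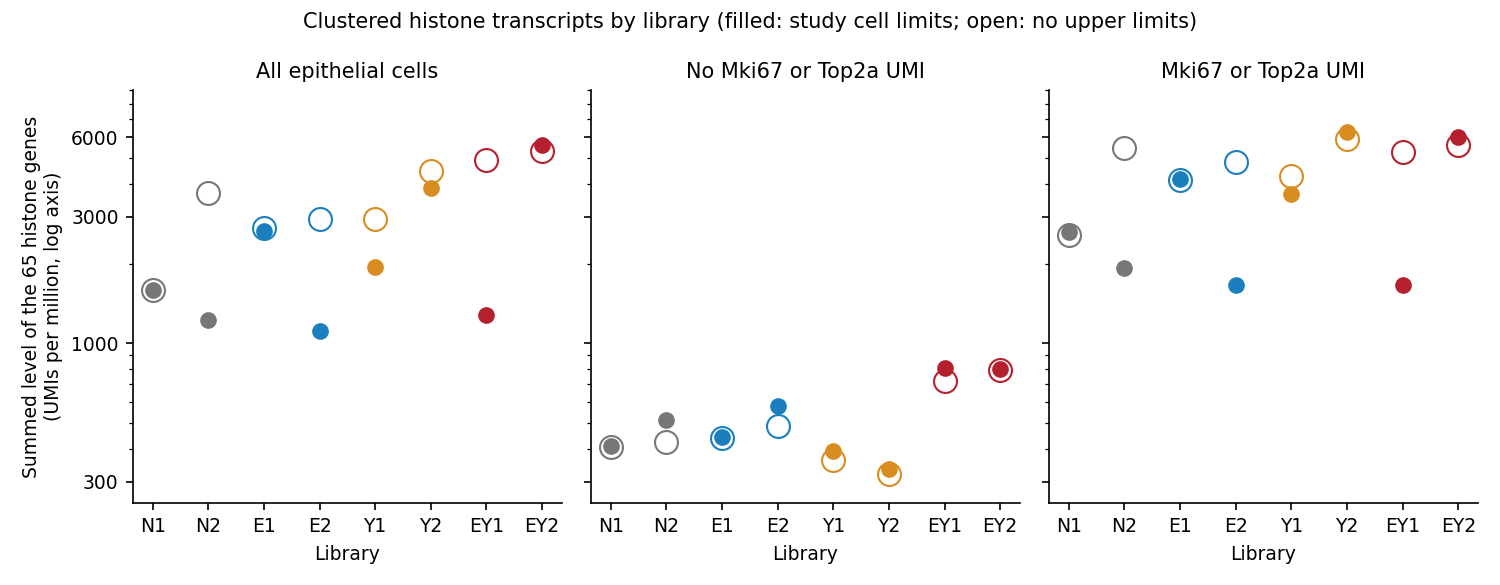
Summed level of the 65 histone genes (CPM, log axis) in each library, for all epithelial cells and for those without and with a UMI of Mki67 or Top2a; filled points use the study's cell limits and open points no upper limits. In cells without these UMIs the EY libraries, at 804 and 800 CPM by the study's limits, lie above the 6 others, at 337 to 578 CPM.

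Mki67, a nuclear protein of cycling cells, and Top2a, the topoisomerase of S phase to mitosis, separated 7365 epithelial cells with a UMI of either from 5592 with neither. The cells with one made up 50.0% and 49.4% of epithelial cells in N and 53.8% and 48.6% in E. They made up 44.7% and 54.7% in Y, and 48.8% and 87.8% in EY. With no upper limits their share was 50.6% and 59.1% in N, 55.0% and 53.2% in E, and 55.6% and 65.9% in Y. In EY it was then 79.8% and 89.9%, and their member level was 5270 and 5599 CPM, against 2563 to 5890 CPM in N, E and Y. The members summed to 2624 and 1923 CPM in N, 4166 and 1666 in E, 3671 and 6273 in Y, and 1666 and 6008 in EY cells with such a UMI. In cells without one they summed to 411 and 516 CPM in N, 441 and 578 in E, 391 and 337 in Y, and 804 and 800 in EY. Every library thus held higher histone CPM in the cells with a marker UMI, and the smallest contrast was that of EY1.

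Member by member, 56 of the 65 could be tested between the cells with and without the markers, in edgeR's quasi-likelihood test with the library as a block. Of these, 52 were higher in the cells with Mki67 or Top2a and 0 lower at an adjusted p under 0.05, where 28.0% of all 12762 genes tested were called and 13.6% were called higher. The median log2 fold change was 2.55 over the members tested and -0.02 over all genes. Leaving out each library gave 50 to 55 calls. Hist1h3b, an H3 gene, had the largest change at 5.29 (SE 0.35), with 13.6 and 11.4 CPM in N cells with a marker UMI against 0.215 and 0.229 without. Hist1h2af followed at 4.99, then the linker histone genes Hist1h1a at 4.54 and Hist1h1b at 4.40, and the H2A genes Hist1h2an at 4.26 and Hist1h2ae at 4.15. Hist1h2af had UMIs in both sets of cells in 2 of the 8 libraries and Hist1h2an in 5. In the other libraries a set of cells held no UMI of the gene. Hist1h2ap rose by 4.08 (SE 0.45), from 16.2 to 483 CPM in N1 and from 46.0 to 2962 CPM in Y2, but only from 233 to 607 CPM in EY1.

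The 4 members tested and not called were Hist1h2bc at 0.12 (SE 0.14, adjusted p = 0.580), Hist3h2a at 0.05 (SE 0.12, adjusted p = 0.828), Hist2h3c1 at -0.19 (SE 0.26, adjusted p = 0.649) and Hist2h2be at 0.78 (SE 0.47, adjusted p = 0.251) in edgeR. Hist1h1c, a linker histone gene whose annotated transcript runs far past the stem-loop, rose by 0.71 (SE 0.09, adjusted p = 7.26e-05). By annotated end, the median change was 2.80 in the 14 tested members that stop within 100 bases of the stem-loop, 2.79 in the 27 with no match and 1.70 in the 15 that run on, of which 14, 25 and 13 rose. These medians describe members that passed the filter on low counts and carry no test of their own.

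**Figure D2:**
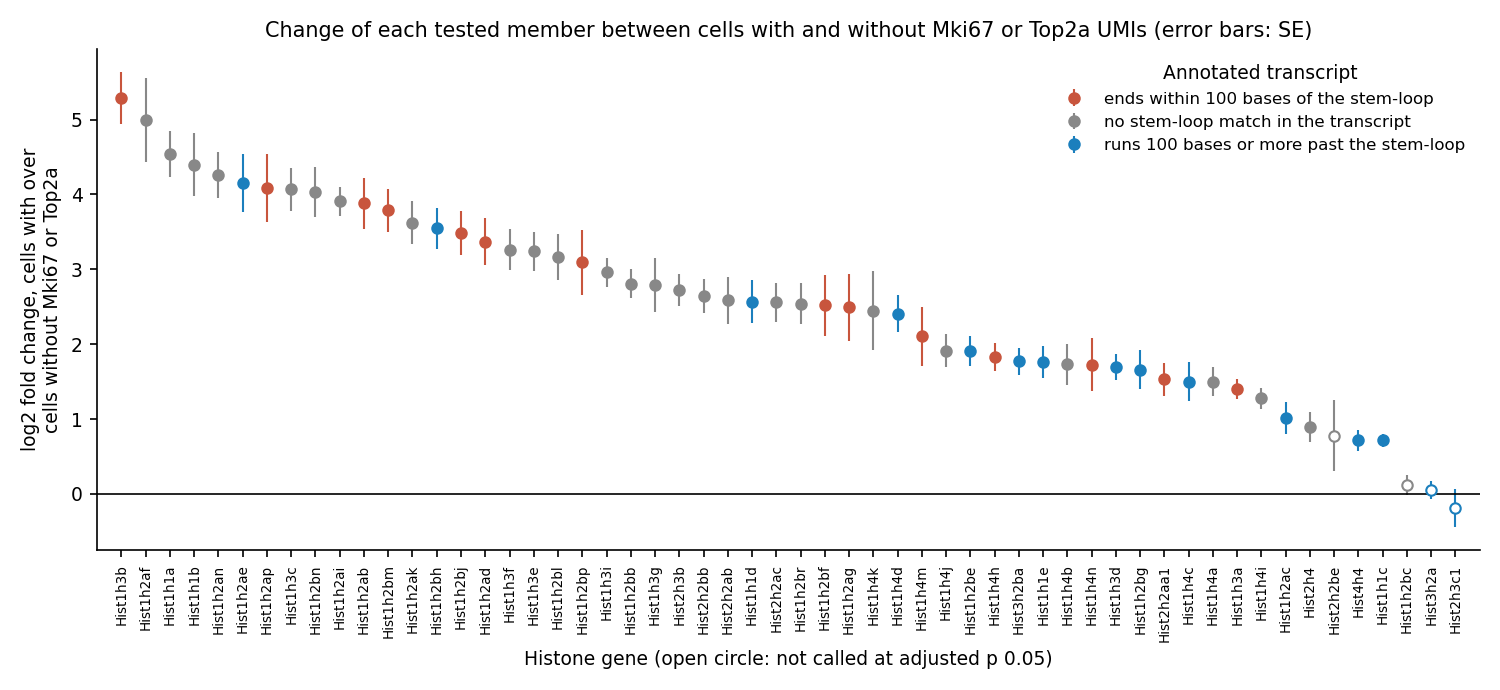
Log2 fold change of each tested member between epithelial cells with and without Mki67 or Top2a UMIs (points, with SE), ordered by size and coloured by where the annotated transcript ends. All but 4 of the 56 are called, and the open circles near 0 include Hist1h2bc at 0.12 and Hist3h2a at 0.05.

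In the cells without Mki67 or Top2a UMIs, Hist1h2ap and a set of other members, of H1, H2A, H2B, H3 and H4, stood higher in EY than in N. Of 35 members tested, 12 were higher and 1 lower in EY at an adjusted p under 0.05 in edgeR, where 16% of 11786 genes were called and 9.51% were called higher. Those that rose were 1 of 5 tested H1, 3 of 9 H2A, 3 of 8 H2B, 3 of 6 H3 and 2 of 7 H4 genes. Leaving out N1 or EY2 left 1 call, Hist1h2ae in both cases, leaving out N2 left 4, E1 or E2 left 6, and Y1, Y2 or EY1 left 10. The other 30 members were too low to test, and members that EY alone lifts over the filter on low counts enter more easily, so the counts describe the tested members only. The sums rest on 334 EY cells, 87 in EY1 and 247 in EY2, and on 3284 member UMIs in them. The median EY cell of this set held 9741 (EY1) or 11872 (EY2) UMIs, against 11478 to 23374.5 in the other libraries, and immune markers stood at 2272 and 686 CPM in EY epithelial cells as given above; the part of either in the result was not tested.

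Hist1h2ap was at 16.2 and 38.7 CPM in N, 43.7 and 68.4 in E, 32.0 and 46.0 in Y, and 233 and 356 in EY, so that both EY libraries lay above the 6 others. Its log2 fold change was 3.53 (SE 0.48, edgeR adjusted p = 0.00701), 2.94 without N1 (adjusted p = 0.0538), 3.12 without EY2 (adjusted p = 0.0743) and 3.80 without EY1 (adjusted p = 0.00916). Hist1h2ae, a second H2A gene, was at 8.76 and 10.5 CPM in N, 14.7 and 20.3 in E, 10.4 and 12.3 in Y, and 53.1 and 71.9 in EY, a change of 2.81 (SE 0.26, edgeR adjusted p = 0.00409). Again the EY libraries did not overlap with any other, and this call held with each of the 8 libraries left out. The H3 gene Hist1h3c was at 1.93 and 3.20 CPM in N, 3.06 and 2.29 in E, 2.91 and 3.13 in Y, and 21.6 and 13.4 in EY (2.87, SE 0.41, edgeR adjusted p = 0.00766), with an adjusted p of 0.0686 without N1, of 0.0655 without EY2 and of 0.0138 without EY1.

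The largest fold change, 4.39 (SE 0.75, edgeR adjusted p = 0.0115) for the H3 gene Hist1h3b, rested on 3 UMIs in EY1 and 17 in EY2, at 2.70 and 5.69 CPM, against 0.215 and 0.229 CPM in N, and was 4.71 without EY1 (adjusted p = 0.0126). Hist1h2ab was at 0.987 and 2.52 CPM in N and at 26.1 and 6.36 in EY (3.35, SE 0.90, adjusted p = 0.0416), with a wide spread between the EY libraries, and lost its call without EY1 (2.14, adjusted p = 0.141). The H2B gene Hist1h2bj was at 0.859 and 0.687 CPM in N and at 9.0 and 5.69 in EY (3.17, SE 0.80, adjusted p = 0.0349) and also lost its call without EY1 (2.87, adjusted p = 0.0737). The linker histone gene Hist1h1b rose from 20.5 and 17.9 CPM to 58.5 and 55.2 (1.61, adjusted p = 0.0198). The remaining 5 that rose were Hist1h3f, Hist1h4i, Hist1h2bm, Hist1h2bb and Hist1h4a, with changes between 1.08 and 2.57. Without N1 or without EY2 none of the members in this paragraph was called.

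Other abundant members did not follow. Hist1h2bc, an H2B gene with no stem-loop in its annotated transcript, changed by -1.20 (SE 0.33, adjusted p = 0.0446 in edgeR), from 138 and 153 CPM in N to 84.6 and 42.8 in EY. It changed by -1.72 without EY1 (adjusted p = 0.0194), was not called without N1, N2, E1, E2 or EY2, and with no upper limits was at -1.02 (adjusted p = 0.0814). Hist1h1e was at 71.1 and 78.5 CPM in N and 53.1 and 50.5 in EY (-0.48, adjusted p = 0.0768). Hist1h1c was at 56.9 and 78.7 CPM against 54.9 and 33.8 (-0.61, adjusted p = 0.175), and the H4 gene Hist1h4d at 16 and 25.4 against 28.8 and 17.7 (0.18, adjusted p = 0.749). None of these 3 passed the test. By annotated end, 5 of the 10 tested members that stop near the stem-loop rose, 6 of the 13 with no match rose and 1 fell, and 1 of the 12 that run on rose, with medians of 3.26, 1.61 and 0.42, beside the 9.51% of all genes called higher. The classes were not tested against each other, and each holds members that EY may have lifted over the filter.

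**Figure D3:**
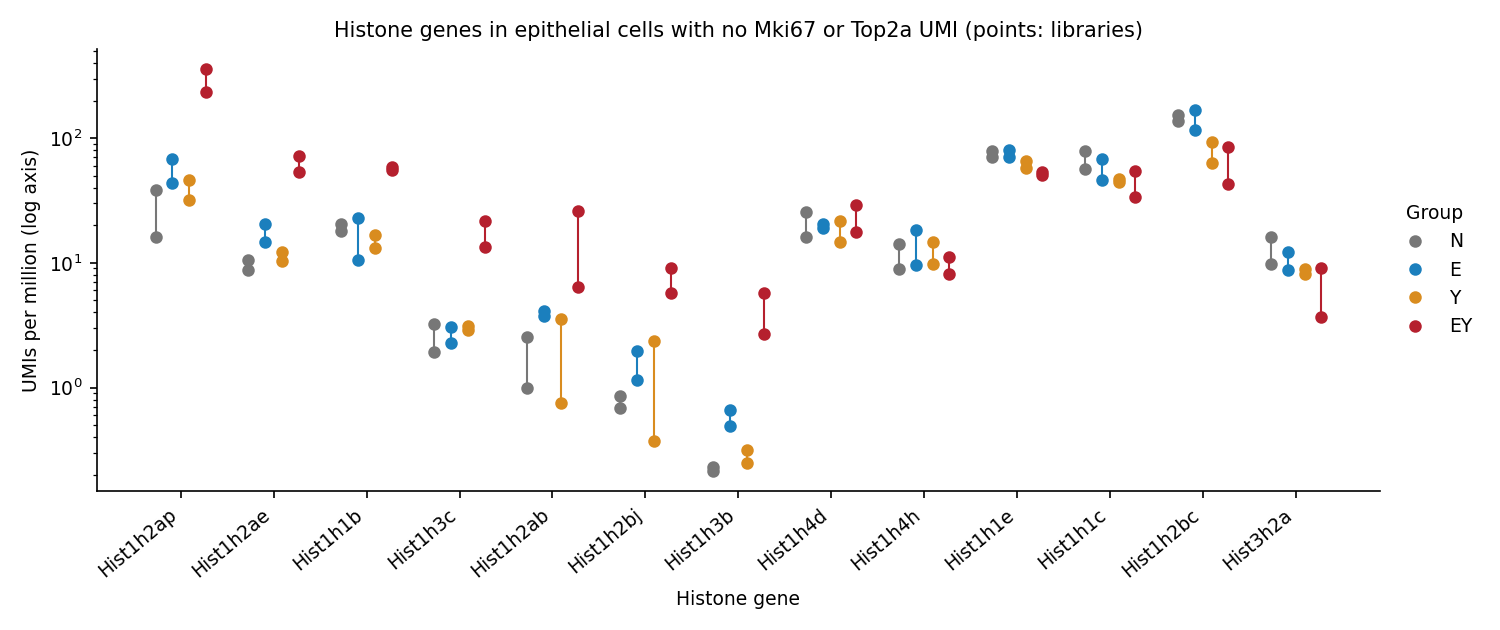
Level (CPM, log axis) of named histone genes in epithelial cells with no Mki67 or Top2a UMI; each point is a library, coloured by group. For Hist1h2ap the EY points at 233 and 356 CPM lie apart from the 6 others at 16.2 to 68.4 CPM, and for Hist1h2bc they lie at the low end, at 84.6 and 42.8 CPM.

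For the sum over all members in these cells, the EY minus N difference was 339 CPM (N 463 ± 74.3 SD, EY 802 ± 3.41 SD, n = 2 each), between 286 and 391 CPM with a library left out, and 72.1 CPM without Hist1h2ap. Without that gene the sums were 394 and 477 CPM in N, 397 and 509 in E, 359 and 291 in Y, and 571 and 444 in EY. EY2 then lay below N2 and E2, so the separation of EY from the other libraries depended on Hist1h2ap.

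The cells without Mki67 or Top2a were not free of other cell cycle transcripts. The 24 genes of an S phase list summed to 262 and 251 CPM in N, 940 and 588 in E, 281 and 343 in Y, and 860 and 1103 in EY, and 22 of the 24 were higher in EY than in N. The 17 genes of a G2/M list summed to 72.9 and 72.1 CPM in N, 66.6 to 87.0 CPM in E and Y, and 324 and 367 in EY, with 14 of 15 tested higher in EY. Among them Ccnb1, a cyclin of mitosis, was at 3.35 and 2.52 CPM in N and 20.7 and 29.1 in EY (3.13, adjusted p = 0.00800 in edgeR). E1 lay between the EY libraries in its S phase level, while both E libraries lay near N in their G2/M level. How far cycling cells that happened to yield no Mki67 or Top2a UMI enter the EY values was not tested beyond the wider split that follows.

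Asking also for no UMI of any S phase gene left 3 cells in EY1, 15 in EY2 and 12 to 207 in the other libraries. The summed member level in these cells was 440 and 663 CPM in N, 516 and 566 in E, 458 and 470 in Y, and 526 and 814 in EY, so EY1 fell among the other groups. Of 8 members tested 0 were called in edgeR, with Hist1h2ap at 2.79 (adjusted p = 0.176) and Hist1h2ae at 2.58 (adjusted p = 0.455). At 18 EY cells a difference of the size seen with the narrower split was not resolved, and the data do not show whether histone transcripts stood higher in EY cells outside S phase.

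Within the cells without Mki67 or Top2a, few cells held much of the sum in EY. The median over cells was 351 and 430 CPM in N, 377 and 482 in E, 342 and 288 in Y, and 582 and 537 in EY, so the typical EY cell also lay above, by less than the sums. Above 5000 CPM were 8 of 87 cells in EY1 (9.20%, exact binomial 95% interval 4.05% to 17.3%) with 35.6% of its member UMIs, and 6 of 247 in EY2 (2.43%, interval 0.897% to 5.21%) with 24.8%. In each other library 0 or 1 cell lay above it, at most 0.476% of cells. After every cell was thinned to 2000 UMIs and split anew, the share of marker-free cells with a member UMI was 57.7% and 66.5% in N, 56.4% and 68.9% in E, 56.3% and 50.8% in Y, and 61.5% and 78.0% in EY, where EY1 lay within the range of the others.

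Keratin-low cells with a Ptprc UMI, which are immune cells of the same libraries, gave a reference for transcripts that are not epithelial. Those without Mki67 or Top2a held 265 and 383 CPM of the members in N, 325 and 485 in E, 351 and 350 in Y, and 362 and 850 in EY. Their Hist1h2ap level was 57.4 CPM in EY1, against 233 in epithelial cells, and 286 CPM in EY2, against 356. In EY2, then, immune cells held nearly as much Hist1h2ap as epithelial cells. Their sum over all members, 850 CPM, was above the 800 CPM of EY2 epithelial cells without the markers. In EY1 the sums were 362 and 804 CPM. RNA free in the droplets and RNA of the cells cannot be told apart in EY2. Hist1h2bc was at 14.3 to 35.6 CPM in these immune cells of all libraries, below the 42.8 to 168 CPM of epithelial cells.

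The difference between cells with and without the markers was also compared between EY and N. The median of the members was -0.86, a smaller excess in EY, but 0 of 56 were called in edgeR, where 1.05% of genes were called. At an unadjusted p under 0.05 there were 10, and DESeq2 called 0. Hist1h3b stood at -2.90 (adjusted p = 0.0526) and Hist1h2ap at -2.09 (SE 0.65, adjusted p = 0.191). Leaving out E1 gave 2 calls and leaving out E2 gave 3, all lower in EY. Without the upper limits 9 of 62 members were called in edgeR, all lower in EY, where 758 of 13864 genes were called. Among them were Hist1h2ap at -2.15 (adjusted p = 0.0107), Hist1h1b at -1.70 (adjusted p = 0.00416) and Hist1h2bc at -0.78 (adjusted p = 0.00704).

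Over all epithelial cells, the members called in EY against N were of low level or fell. Of 60 members tested 4 rose and 2 fell in edgeR, where 18.8% of 13555 genes were called, so the share of members called was below that of all genes. The median log2 fold change was 1.07 over the members tested and -0.05 over all genes, and 26 members had an unadjusted p under 0.05. Without EY1 the count of calls was 21, without N1, N2 or EY2 it was 0, and without E1, E2, Y1 or Y2 it was 4 or 5. The 4 that rose were the H2B genes Hist1h2bp (2.97, SE 0.74, adjusted p = 0.0342), Hist1h2bb (2.12, SE 0.49, adjusted p = 0.0290) and Hist1h2br (1.82, SE 0.52, adjusted p = 0.0491) and the H4 gene Hist1h4a (1.34, SE 0.37, adjusted p = 0.0447). Hist1h2bb, for example, was at 4.33 and 2.06 CPM in N, 11.7 and 6.44 in E, 9.84 and 11.9 in Y, and 8.15 and 18.5 in EY. Its N libraries were the lowest, and those of the other groups overlapped.

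Of the 12 members with the highest mean level, Hist1h1c alone was called, and lower. Hist1h2ap was at 265 and 301 CPM in N, 860 and 317 in E, 608 and 1776 in Y, and 438 and 2897 in EY (2.60, SE 0.92, adjusted p = 0.0813). Hist1h1b was at 424 and 102 CPM in N, 446 and 45.9 in E, 316 and 597 in Y, and 113 and 671 in EY (0.65, SE 1.15, adjusted p = 0.700). Hist1h2ae was at 114 and 72.5 CPM in N and 102 and 680 in EY (2.13, adjusted p = 0.129), Hist1h1e at 195 and 115 against 90.4 and 237 (0.14, adjusted p = 0.875). Hist1h1c and Hist1h2bc are described below. The others of the 12, Hist1h4d, Hist1h3c, Hist1h2ab, Hist1h4h, Hist1h1d and Hist2h2ac, changed by 0.54 to 2.05 with no call. For Hist1h2ap, Hist1h1b and Hist1h2ae the EY libraries lay far apart, with EY1 the lower. Without the upper limits 12 of 62 members were called, 8 higher and 4 lower, where 40.8% of genes were called.

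Y against N gave 0 calls among 60 members in edgeR, where 0.457% of genes were called, with 12 at an unadjusted p under 0.05 and 1 call in DESeq2. E against N gave 0 calls among 60, where 0.243% of genes were called, with 4 at an unadjusted p under 0.05 and 0 in DESeq2. All 3 comparisons share the N libraries. In EY against N within the cells with Mki67 or Top2a, 3 of 55 members rose and 3 fell, where 21.5% of genes were called. Hist1h2bb (1.54, adjusted p = 0.0379), Hist1h4n (2.06, adjusted p = 0.0473) and Hist1h2bp (2.77, adjusted p = 0.0463) rose, and Hist1h2ap was at 1.92 (adjusted p = 0.110). That count was 0 without EY2, 1 without N2, 2 without N1, 3 without Y2, 4 without Y1 and 14 without EY1.

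A model with both transgenes as terms set the 4 libraries with YAP1S127A (Y and EY) against the 4 without it. Of 59 members tested 2 were called, both lower, where 9.33% of 13122 genes were called in edgeR. They were Hist1h2bc (-1.40, SE 0.35, adjusted p = 0.0444) and Hist3h2a (-0.94, SE 0.24, adjusted p = 0.0483). The calls were lost without N1, N2, E1, E2, Y2 or EY2, were 2 without Y1, and were 5 without EY1. For E6-E7 0 of 59 members were called in edgeR, where 0.434% of genes were called, with 3 at an unadjusted p under 0.05 and 0 in DESeq2. Without the upper limits the YAP1S127A term called 16 of 62 members, 11 higher and 5 lower, where 42.1% of genes were called.

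Hist1h2bc, Hist3h2a and Hist1h1c went down where most members stood higher in EY. Hist1h2bc was at 150 and 231 CPM in N, 118 and 211 in E, 103 and 54.7 in Y, and 80.7 and 32.0 in EY. All libraries with YAP1S127A lay below all without it, and EY against N gave -1.81 (SE 0.53, adjusted p = 0.0511) in edgeR. In the cells with Mki67 or Top2a the same comparison gave -2.21 (SE 0.61, adjusted p = 0.0372). Hist3h2a, an H2A gene whose transcript runs far past its stem-loop, was at 15.5 and 14.6 CPM in N, 9.08 and 13.0 in E, 9.30 and 7.63 in Y, and 7.74 and 3.48 in EY (EY against N -1.62, SE 0.37, adjusted p = 0.0281). Its EY libraries lay below all N and E libraries, while Y1 lay above E1. Hist1h1c was at 84.2 and 111 CPM in N, 77.1 and 77.1 in E, 62.8 and 66.6 in Y, and 60.7 and 54.6 in EY (-0.75, SE 0.18, adjusted p = 0.0295), again with the libraries of Y and EY below the others. In cells with Mki67 or Top2a, Hist3h2a gave -1.97 (adjusted p = 0.0128) and Hist1h1c -1.03 (adjusted p = 0.0123). With EY2 left out none of these members was called in either set of cells.

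Without the upper limits, Hist1h2bc was at 147 and 149 CPM in N, 117 and 162 in E, 78.8 and 44.5 in Y, and 58.2 and 29.6 in EY. The YAP1S127A term was then -1.41 (SE 0.25, adjusted p = 0.00380) for Hist1h2bc, -0.99 (SE 0.16, adjusted p = 0.00275) for Hist3h2a and -0.28 (SE 0.09, adjusted p = 0.0451) for Hist1h1c. With the limits Hist1h1c was at -0.47 (adjusted p = 0.0559) for this term and not called. The 11 members that rose in that setting included Hist1h1b (0.73, adjusted p = 0.0178), Hist1h1d (0.67, adjusted p = 0.0160) and Hist1h3c (0.94, adjusted p = 0.0264).

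The make-up of the captured histone transcripts also differed. In cells without Mki67 or Top2a, H2A genes made up 13.6% to 23.5% of member UMIs in the N, E and Y libraries and 44.6% and 60.3% in EY. H2B genes made up 21.9% to 36.3% in the former and 15.5% and 8.45% in EY, and H1 genes 29.5% to 37.6% against 23.4% and 18.6%. Hist1h2ap alone made up 3.95% to 13.7% against 29.0% and 44.5%. EY thus lay outside the range of the other 6 libraries for each of these shares in these cells. The level of H1 genes was alike, at 154 and 184 CPM in N and 188 and 149 in EY, so their lower share went with a higher sum of the others. H2A genes were at 55.8 and 90.6 CPM in N and 359 and 482 in EY, most of it Hist1h2ap. In cells with Mki67 or Top2a the H2A share was 30.8% and 41.9% in N and 51.6% and 49.5% in E. It was 50.5% and 61.1% in Y and 51.5% and 69.6% in EY, so EY1 lay among E and Y there. Hist1h2ap alone made up 34.2% and 47.2% in Y and 36.5% and 51.9% in EY in those cells. Over all epithelial cells Hist1h2ap took between 16.7% (N1) and 51.8% (EY2), the 12 highest members together 84.0% to 91.0%, and the Hist1 cluster 95.2% to 98.1%. Of the 65 members 22 had a mean level of at least 10 CPM and 15 one under 1 CPM, and 55 had a UMI in the epithelial cells of all 8 libraries.

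**Figure D4:**
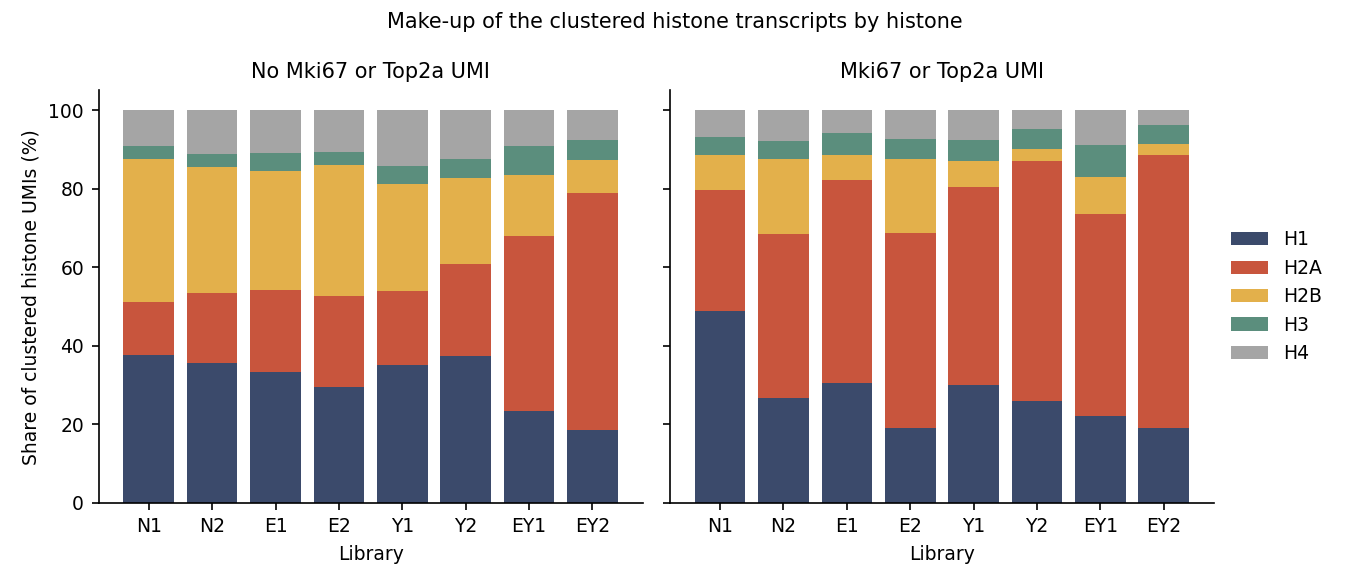
Share of the clustered histone UMIs (%) taken by H1, H2A, H2B, H3 and H4 genes in each library, by set of epithelial cells. In cells without Mki67 or Top2a the H2A share is 44.6% and 60.3% in EY and at most 23.5% in the 6 other libraries. In cells with them it is 51.5% and 69.6% in EY and 49.5% to 61.1% in E and Y.

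Within the study's cell limits, some ratios between members followed the library and not the group. Per 1000 Hist1h2ap UMIs in epithelial cells with Mki67 or Top2a, Hist1h2ak had 13.7 and 37.3 UMIs in N, 8.33 and 3.50 in E, 8.86 and 4.57 in Y, and 6.13 and 47.7 in EY. In the immune cells of the same libraries the values were 15.3 and 37.6, 7.04 and 3.40, 11.1 and 7.33, and 9.08 and 41.0. Both cell types of a library gave like Hist1h2ak ratios, whereas libraries of a group differed. Some rest on few Hist1h2ak UMIs, 5 in EY1 and 12 in E2 epithelial cells, 6 in N1 and 9 in EY1 immune cells. For the H2A gene Hist1h2ab the ratios were 67.3 and 32.0 in N, 60.6 and 47.6 in E, 71.9 and 7.38 in Y, and 83.3 and 20.8 in EY, with 58.8, 31.9, 72.3, 47.0, 76.0, 9.53, 69.6 and 30.8 in immune cells in the same order. With no upper limits the Hist1h2ab ratio in EY1 epithelial cells was 41.5, from 2008 UMIs, against 83.3, from 68 UMIs, within the limits. That ratio changed less in the other libraries. Both genes share sequence with other H2A members, and the part of read assignment in these ratios was not tested. A fold change of Hist1h2ak or Hist1h2ab between groups carries this variation.

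**Figure D5:**
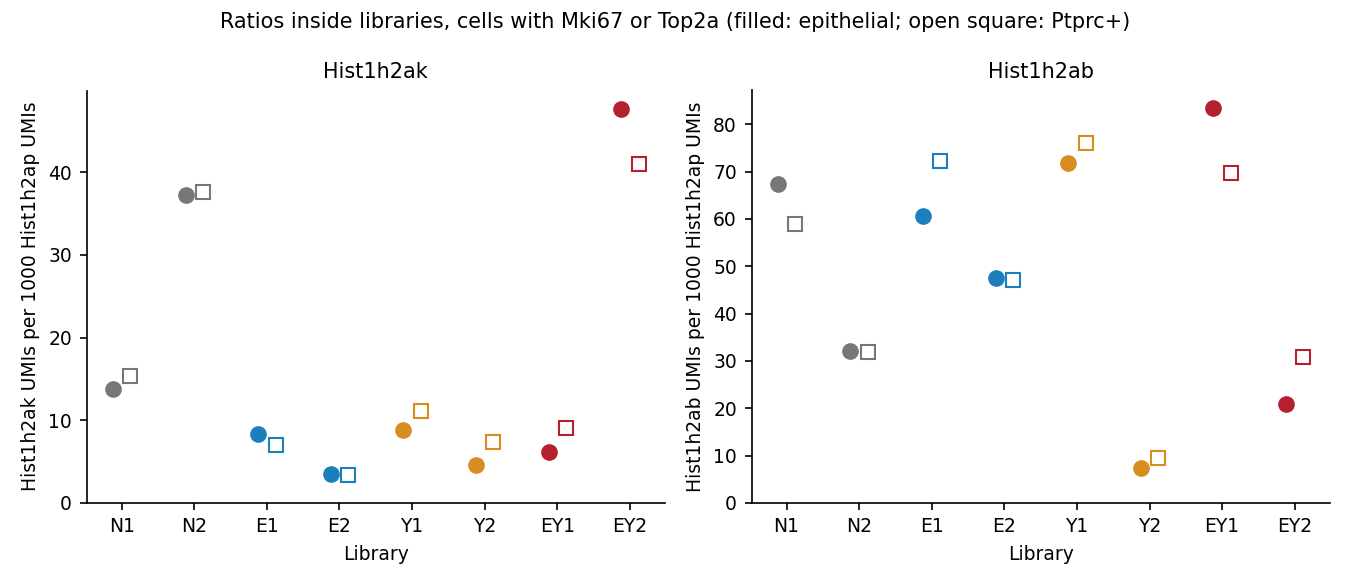
UMIs of Hist1h2ak and of Hist1h2ab per 1000 Hist1h2ap UMIs in each library, in cells with Mki67 or Top2a; filled points are epithelial cells and open squares keratin-low cells with a Ptprc UMI. The paired points lie close together within a library, while N1 and N2 (13.7 and 37.3 for Hist1h2ak) or Y1 and Y2 (71.9 and 7.38 for Hist1h2ab) lie far apart.

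Genes that make, process or carry histones were compared in the same tests. Of 13 genes for histone transcription and the making of the transcript's end, 3 rose in EY against N over all epithelial cells. In the cells without Mki67 or Top2a 7 of 12 tested rose, with none lower in either set. Over all cells 18.8% of genes were called in either direction and 1262 of 13555 were called higher. In the cells without the markers 9.51% were called higher. Slbp, which binds the stem-loop, was at 24.2 and 19.9 CPM in N and 53.1 and 58.9 in EY in the latter cells (1.40, adjusted p = 0.0115), and over all cells gave 1.46 (adjusted p = 0.0578). Eri1, an exonuclease that trims histone transcripts, rose by 0.81 and Casp8ap2, a part of the histone locus body, by 0.67, while Cpsf2, an end-processing factor, was at 0.43 (adjusted p = 0.118), all in those cells.

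Of 9 histone chaperone genes, 2 rose over all epithelial cells, beside 1262 of 13555 genes called higher. In the cells without Mki67 or Top2a 5 rose, beside 9.51%, with none lower in either set. Nasp, a chaperone of H3 and H4 and of linker histones, was at 76.7 and 75.3 CPM in N and 180 and 173 in EY in the latter (1.26, adjusted p = 0.0121). The 11 replacement histone genes have symbols outside the pattern. Of them 4 fell and 0 rose over all cells, beside 18.8% of all genes called in either direction. H3f3a was among those that fell (-0.79, edgeR adjusted p = 0.0426). In cells without Mki67 or Top2a 2 rose and 2 fell, with H2afz, a replacement H2A, at 475 and 423 CPM in N and 693 and 734 in EY (0.72, adjusted p = 0.0258). Of the S phase and G2/M lists, 9 of 24 and 0 of 17 rose over all epithelial cells, beside the same 1262 of 13555 genes called higher. Between cells with and without Mki67 or Top2a, 24 of 24 S phase genes, 17 of 17 G2/M genes (Mki67 and Top2a themselves defined the split), 8 of 9 chaperone genes and 9 of 11 replacement histone genes were higher, and 8 of 12 genes of the first list were, beside 13.6% of all genes.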

How the data were processed

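Single-cell UMI counts per gene and cell, raw and not normalized, were deposited for 8 libraries; the authors made them with Cell Ranger on its prebuilt mm10 reference, the handling of reads shared between histone genes not given in the sources used here. Counts were summed per library over the cells described, divided by all UMIs of those cells for CPM, and tested in edgeR 4.0.16 (R 4.3.3; filterByExpr, TMM, quasi-likelihood, all 8 libraries in one fit, Benjamini-Hochberg over all genes tested, threshold 0.05); DESeq2 1.42.0, RLE size factors, no filter, other cell limits, a keratin minimum of 2%, thinning to 2000 UMIs, a wider split and leaving out each library were tried. P-values measure the spread between libraries, 2 a group; intervals cover counting error only. Doublets were not treated beyond the upper limits. The members, lists and tests were chosen with earlier results of these data known. Named were the 12 highest members, up to 6 called members with the largest change each way per comparison, and up to 4 highest genes per list; members and list genes named beyond that were chosen after their values were seen. Scripts were tested on simulated data. Python 3.11.15 was used for sums and figures.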

Additional observations from a re-analysis of the deposited data

Results flagged for a closer look

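In 2 members the ratio between cells with and cells without Mki67 or Top2a UMIs went one way in every library of a group and the opposite way in every library of another. For Hist1h2bc the log2 ratio was 0.22 and 1.01 in N, 0.03 and 0.60 in E, 0.27 and -0.37 in Y, and -0.13 and -0.46 in EY. The group means differed by -0.91 between EY and N and by -0.61 between EY and E. The edgeR test of the EY minus N difference gave -0.95 (SE 0.32, adjusted p = 0.229), and the difference from E was not tested. For Hist3h2a the log2 ratio was 0.07 and 0.19 in E and -0.43 and -0.09 in EY, a difference of -0.39 that was not tested. With 2 libraries a group, such opposite signs can arise by chance. With no upper limits on cells the EY minus N difference of Hist1h2bc was -0.78 (adjusted p = 0.00704 in edgeR).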

How the results depend on the processing

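No named member that was called, and no summed difference other than that over all epithelial cells with EY2 left out, changed sign; members near 0 that were not called were not followed. The YAP1S127A calls went from 0 higher and 2 lower to 11 and 5 without upper limits and to 11 and 3 with DESeq2. Counts of members called moved by over 1.5 times as follows. These counts, like those with a library left out above, are given without the share of all genes called in the same fit. That share differs between settings, at 18.8% for EY against N in all epithelial cells and 40.8% without upper limits. The counts alone therefore do not set the members against other genes. EY against N in all epithelial cells (6): 17 with DESeq2, 30 with no filter on low counts, 12 without upper limits, 11 with a minimum of 200 genes, 14 with keratins at 2%, and 0 to 21 with a library left out. Y against N (0): 1 with DESeq2, 23 with no filter, 1 without upper limits. E against N (0): 7 with no filter. YAP1S127A (2): 14 with DESeq2, 29 with no filter, 16 without upper limits, 5 with keratins at 2%, 0 to 5 with a library left out. E6-E7 (0): 3 with no filter. For Y, E and E6-E7, leaving out a library gave 0 to 0. Cells without Mki67 or Top2a (13): 0 with the wider split, 21 with thinned cells, 1 to 10 with a library left out. Cells with them (6): 24 with no filter, 10 thinned, 0 to 14. With against without (52): 29 with the wider split, 50 to 55. Its difference between EY and N (0): 1 with RLE, 10 with no filter, 9 without upper limits, 1 with a minimum of 200 genes, 15 thinned, 0 to 3. The wider split without upper limits, chosen after seeing the data, gave 0 and 12 calls in cells without and with the markers. The summed EY minus N difference over all epithelial cells (2027 CPM) ran from -128.63 to 4183 with a library left out. In cells without the markers (339 CPM) it was 748 with a minimum of 200 genes, 279 with keratins at 2%, 119 with the wider split, 2057 thinned, 176.2 with the wider split and no upper limits, 72.1 without Hist1h2ap, and 286 to 391 with a library left out. After thinning, cells without marker UMIs made up 76.9% and 52.7% of epithelial cells in EY, against 51.2% and 12.2% before. In N they made up 73.7% and 79.0%, against 50.0% and 50.6%. The cause of the larger difference in thinned cells was not tested. Of the named members' calls, 102 were kept and 50 lost with a library left out, and 129 kept and 10 lost in other settings. E and Y libraries do not enter the sums' difference. No paired analysis was possible because the labels give animal numbers that no 2 groups share; the replicate numbers used here follow accession order only. With 87 and 247 such EY cells, members under a few CPM rest on few UMIs.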
